A study of Homo sapiens with 6 samples.

Results

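A set of 10 genes that encode secreted regulators of vessel growth were examined in A549-GFP and A549-TIPARP cells. They were taken by gene symbol from the deposited tables and comprise VEGFA, VEGFB, VEGFC and PGF of the VEGF family, the platelet-derived growth factor chains PDGFA and PDGFB, FGF2, EDN1, ANGPTL4 and THBS1. These are 10 of the 53826 entries of each table and 10 of the 13181 genes that passed 2 TPM in at least 1 library. TPM is a transcript abundance scaled to the same total in each library and corrected for transcript length, so levels of different genes can be compared on this scale. A549 is a human lung adenocarcinoma line. A549-TIPARP cells stably carry TIPARP, a mono-ADP-ribosyltransferase, from the retroviral pMXs vector, and A549-GFP cells carry GFP from the same vector. There were 3 libraries of each line, numbered by experiment, and nothing in the labels says whether a number stands for a separate culture. P-values therefore measure the spread between these libraries, which may be technical. The tables hold no read counts, so library depth is unknown and counting errors cannot be computed. The comparison asks whether cells that overexpress TIPARP, and that were studied for their effect on vessels, differ in the transcripts of the factors by which tumor cells act on vessels.

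Secreted angiogenic factors act on endothelial cells and on the cells that wrap vessels. VEGFA drives endothelial growth and permeability through the receptor KDR, VEGFB and PGF bind FLT1, and VEGFC acts through FLT4 and is best known for lymphatic vessel growth. PDGF chains act on pericytes and stromal cells through PDGFRA and PDGFRB, FGF2 acts through the FGF receptors, and EDN1 is a vasoconstrictor peptide. THBS1 is an inhibitor that binds CD36 and CD47 on endothelial cells. ANGPTL4 inhibits lipoprotein lipase and alters vessel permeability, and has been described as acting in either direction on vessel growth.

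The overexpressed gene was first checked in every library. TIPARP was at 6.79, 11.4 and 3.68 TPM in replicates 1 to 3 of A549-GFP, and at 131, 90.5 and 123 TPM in replicates 1 to 3 of A549-TIPARP. The difference on log2(TPM + 1) was 3.90 (SE 0.34, limma adjusted p = 0.0125), and its limma adjusted p ran from 0.00997 to 0.513 over the 13 alternative fits. It was above 0.05 with no filter (0.0965), with the replicate block (0.513) and on removal of any library except A549-GFP replicate 2 (0.0526 to 0.192), while the difference stayed between 3.54 and 4.24 on removal of any library. The tables do not separate transgene from endogenous transcripts. Markers of A549 cells were present, with a summed level of the 8 listed genes between 25032 and 40536 TPM in A549-GFP and between 36918 and 38936 TPM in A549-TIPARP. Of 8 endothelial markers, 7, among them PECAM1, CDH5 and VWF, were at the lowest deposited value in all 6 libraries, and ESAM alone was above it, between 2.43 and 8.09 TPM in A549-GFP and between 4.57 and 8.10 TPM in A549-TIPARP. Of 8 mesenchymal stromal markers, 6 were at the lowest value throughout, LUM left it in 1 library, and COL1A1 reached at most 1.44 TPM in A549-GFP and 2.56 TPM in A549-TIPARP. A549-GFP replicate 2 stood apart. It held the highest value of the 6 libraries for 52% of the analysed genes, and its deviation from the mean of its line (root mean square over genes) was 0.62 on the log2 scale, against 0.19 to 0.40 in the other libraries. KRT8 was at 3855 TPM in that library and at 8947 and 9127 TPM in the other A549-GFP libraries. The log2 differences of the factors are therefore given with and without it.

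The lowest value in the tables is a log2 TPM of 0, or 1 TPM, so every gene below 1 TPM is listed there. By the geometric mean over the 6 libraries, EDN1 was the most abundant factor at 105 TPM, followed by VEGFB at 50.1 TPM, VEGFA at 32.2 TPM, ANGPTL4 at 20.7 TPM and VEGFC at 15.1 TPM. PDGFA at 10.5 TPM and FGF2 at 9.74 TPM came next. THBS1 at 3.30 TPM, PGF at 1.94 TPM and PDGFB at 1.45 TPM were close to the lower limit. EDN1 did not overlap with VEGFB over the libraries, and FGF2 did not overlap with THBS1. All other neighbors in this order overlapped in range. VEGFB was above VEGFA in 5 of 6 libraries, the exception being A549-GFP replicate 2. VEGFA was above ANGPTL4 in 4 of 6 libraries, and PDGFA was above FGF2 in 5 of 6. The sum of the 10 factors was 198, 378 and 209 TPM in replicates 1 to 3 of A549-GFP and 251, 260 and 275 TPM in A549-TIPARP, so the lines overlapped in the total through A549-GFP replicate 2.

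**Figure D1:**
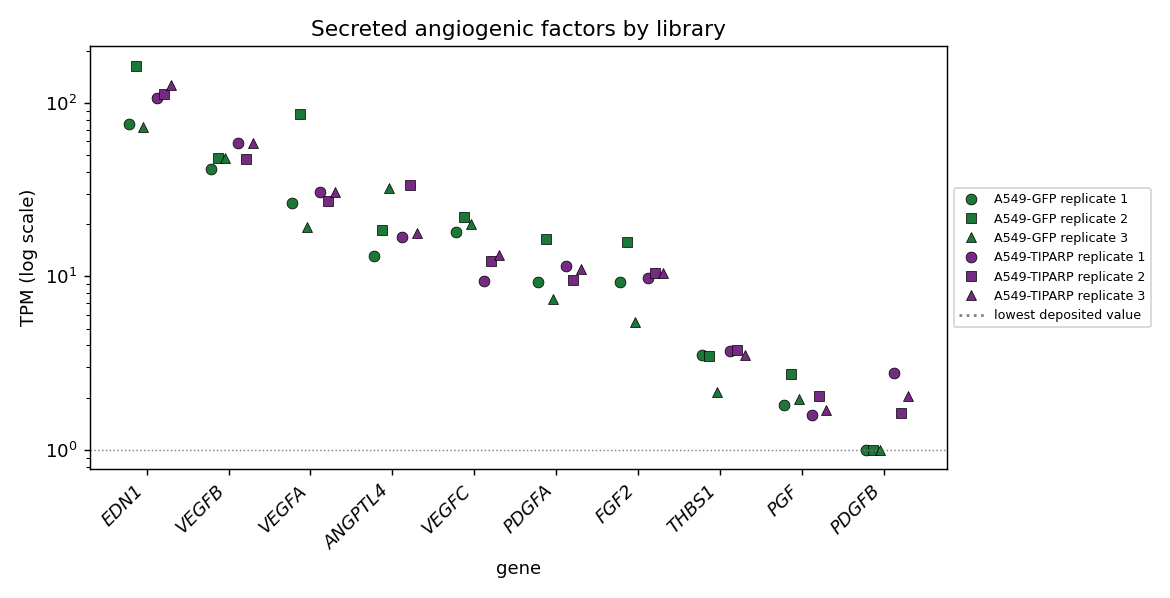
TPM of the 10 factors in each library (log axis), ordered by geometric mean from EDN1 at 105 TPM to PDGFB at 1.45 TPM. Green points are A549-GFP and purple points A549-TIPARP, with a circle, square and triangle for replicates 1, 2 and 3, and the dotted line is the lowest deposited value. The green square of VEGFA, at 86.7 TPM, lies far above the other VEGFA points, and the purple VEGFC points all lie below the green ones.

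The bases before the transcription start are shown for VEGFC and THBS1, whose libraries did not overlap between the lines, and for EDN1 and ANGPTL4, the members with a TATA box. RefSeq promoter windows (GRCh38.p14, 250 bases before the start) were found for 8 of the 10 genes, and for genes with several starts the one at the GENCODE 44 canonical transcript was used. Both strands were searched for ACGTG, the core of the hypoxia response element, GCGTG, the core bound by the aryl hydrocarbon receptor that induces TIPARP, GGGCGG, the GC box, TATAAA, the TATA box, and TGACTCA, the AP-1 site. GGGCGG matches can overlap other matches, as 1 base does in THBS1. Capitals mark matches on either strand. VEGFC lies on the minus strand (chr4:176792923-176793172) and THBS1 (chr15:39580829-39581078), EDN1 (chr6:12290111-12290360) and ANGPTL4 (chr19:8363905-8364154) on the plus strand.
VEGFC: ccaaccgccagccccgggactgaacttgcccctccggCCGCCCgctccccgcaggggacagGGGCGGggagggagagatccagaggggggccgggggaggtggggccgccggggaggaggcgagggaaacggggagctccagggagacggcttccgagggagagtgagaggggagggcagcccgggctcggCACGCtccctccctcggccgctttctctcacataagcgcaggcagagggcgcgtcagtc
THBS1: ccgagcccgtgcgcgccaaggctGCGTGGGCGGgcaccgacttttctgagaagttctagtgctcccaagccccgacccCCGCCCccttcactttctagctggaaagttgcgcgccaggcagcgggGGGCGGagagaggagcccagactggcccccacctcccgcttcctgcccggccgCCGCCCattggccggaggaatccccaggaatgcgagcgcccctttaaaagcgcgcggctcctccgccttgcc
EDN1: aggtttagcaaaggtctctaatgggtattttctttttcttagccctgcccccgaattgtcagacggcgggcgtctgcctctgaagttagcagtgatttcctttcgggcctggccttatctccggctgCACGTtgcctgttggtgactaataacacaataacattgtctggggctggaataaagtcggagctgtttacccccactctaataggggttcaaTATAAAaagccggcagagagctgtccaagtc
ANGPTL4: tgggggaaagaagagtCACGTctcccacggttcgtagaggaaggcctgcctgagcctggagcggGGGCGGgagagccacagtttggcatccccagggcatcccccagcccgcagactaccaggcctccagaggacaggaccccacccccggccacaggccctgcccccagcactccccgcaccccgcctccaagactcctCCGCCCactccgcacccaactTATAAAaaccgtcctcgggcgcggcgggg

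EDN1 and ANGPTL4 each held the TATAAA sequence, starting 31 and 29 bases before the start, and each held 1 ACGTG match on the opposite strand, 123 bases before the start in EDN1 and 234 in ANGPTL4. TATAAA was found in 10.8% and ACGTG in 18.5% of the 34943 promoter windows of this length. None of the other 6 members with a window held either sequence. These 6, VEGFB, VEGFC, PGF, PDGFA, FGF2 and THBS1, each held GCGTG, which was found in 32.2% of all windows, and GGGCGG was found in 7 of the 8 members and in 42.5% of all windows. TGACTCA was found in 0 of the 8 members and in 4.22% of all windows. The window of EDN1 had the lowest GC content of the 8, 49.2%, and the others ran from 68.8% in ANGPTL4 to 82.8% in VEGFB. The median over all windows was 58%, so EDN1 alone lay below it. GCGTG and GGGCGG are themselves rich in G and C, and the shares over all windows were not matched for GC content. A match describes these letters in this window and is not evidence of binding.

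None of the 10 factors had a limma adjusted p under 0.05, while 0.0152% of all analysed genes, or 2 of 13181, had one. At an unadjusted p under 0.05 there were 2 factors, VEGFC and PDGFB, against 3.85% of all genes. PDGFB was at the lowest value in all A549-GFP libraries and passed the filter through its A549-TIPARP values alone, so its direction was set by the filter, and its p, fold and lack of overlap are a description. Adjusted p-values below are from limma over the 13181 genes, and differences given with them are on log2(TPM + 1), whereas folds and medians over a list are on the deposited log2 TPM. By fold alone, on the deposited log2 values, 1 factor, PDGFB, passed the rule of more than 2-fold higher in A549-TIPARP, with its A549-GFP libraries taken as 1 TPM, against 1.53% of all genes. No factor was more than 2-fold lower, against 0.432%. The 3 A549-TIPARP libraries lay above the 3 A549-GFP libraries for PDGFB and THBS1, against 5.36% of all genes, and below them for VEGFC, against 3.54%. The mean was higher in A549-TIPARP for 7 of the 10 factors, PDGFB included, against 5285 of the 13181 analysed genes, and their median difference in deposited log2 TPM was 0.13, against -0.07 over all analysed genes. In bulk RNA, fewer cells that express a gene and less RNA per cell cannot be told apart.

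**Figure D2:**
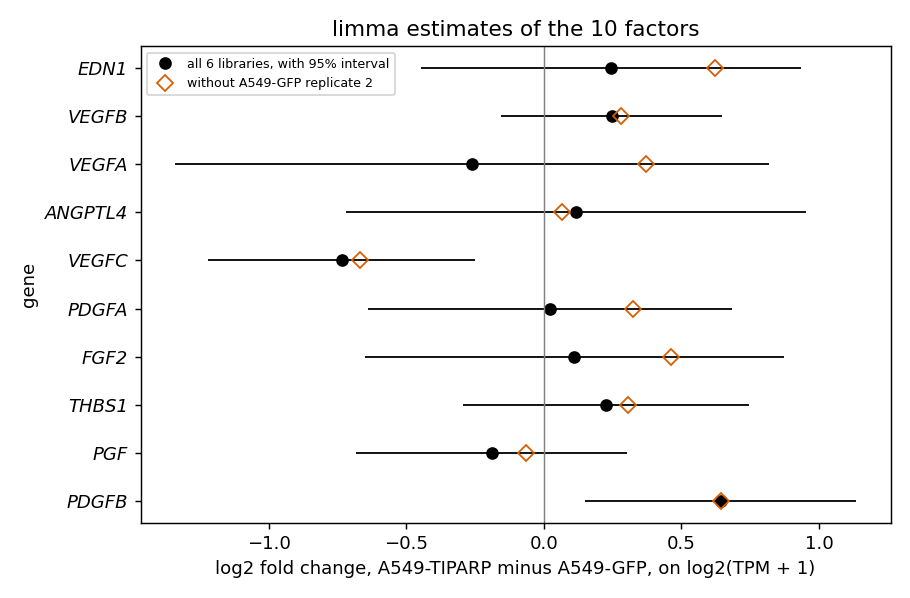
Limma difference of the 10 factors on log2(TPM + 1), A549-TIPARP minus A549-GFP. Filled circles are the fit to all 6 libraries, with lines for the 95% confidence interval, and open diamonds are the fit without A549-GFP replicate 2. The interval of VEGFC leaves out 0. That of PDGFB rests on a line wholly at the lowest value and is shown as a description, and the VEGFA estimate moves from -0.26 to 0.37 without that library.

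VEGFC was the factor with the lowest unadjusted p. The gene spans 176683538 to 176792922 of chromosome 4 (hg38, minus strand) and its canonical transcript has 7 exons. It was at 17.9, 21.8 and 20.0 TPM in replicates 1 to 3 of A549-GFP and at 9.36, 12.3 and 13.4 TPM in replicates 1 to 3 of A549-TIPARP. Every A549-TIPARP library was therefore below every A549-GFP library, and the spread within each line was smaller than the gap between their means. The mean log2 TPM was 4.31 ± 0.14 (SD, n = 3) in A549-GFP and 3.53 ± 0.27 (SD, n = 3) in A549-TIPARP, or 1.72-fold lower. On log2(TPM + 1) the difference was -0.73 (SE 0.21, 95% confidence interval -1.22 to -0.25, limma adjusted p = 0.856). Removal of any single library kept it between -0.83 and -0.60. The unadjusted p was no longer under 0.05 without A549-TIPARP replicate 1. Median-ratio scaling of the libraries gave -0.67. Over the 13 alternatives the adjusted p was 0.338 or higher, so the lower VEGFC level did not pass the correction over all genes in any of them.

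VEGFA is the ligand blocked by the antibody bevacizumab. The study applied it to chick chorioallantoic membranes bearing organoids made with A549-OKS cells, a different A549 derivative, and to membranes without a graft. It reports no such treatment of A549-GFP or A549-TIPARP grafts. The VEGFA gene lies on chromosome 6 (hg38, 43770184 to 43786487) on the plus strand and has 8 exons. The tables give 1 value for all its isoforms. It was at 26.5, 86.7 and 19.2 TPM in replicates 1 to 3 of A549-GFP and at 30.8, 27.0 and 30.7 TPM in replicates 1 to 3 of A549-TIPARP. The A549-TIPARP values lay close together and inside the range of A549-GFP, which A549-GFP replicate 2 widened. That library was 3.28-fold above the geometric mean of the other 5, the widest such ratio among the 10 factors. The difference on log2(TPM + 1) was -0.26 (SE 0.47, 95% confidence interval -1.34 to 0.82, limma adjusted p = 0.994), and the interval takes in a change of 2-fold downward. Without A549-GFP replicate 2 the direction turned, with a difference of 0.37 (limma adjusted p = 0.542), and the 3 A549-TIPARP libraries then lay above both A549-GFP libraries.

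VEGFB, the most abundant VEGF ligand by geometric mean, was at 41.8, 48.3 and 47.9 TPM in replicates 1 to 3 of A549-GFP and at 58.4, 47.6 and 58.5 TPM in replicates 1 to 3 of A549-TIPARP. A549-TIPARP replicates 1 and 3 were above all A549-GFP libraries and A549-TIPARP replicate 2 was not. The difference was 0.25 (SE 0.18, limma adjusted p = 0.994), and between 0.18 and 0.34 when any single library was removed. PGF, placental growth factor, was at 1.82, 2.74 and 1.96 TPM in A549-GFP and at 1.58, 2.04 and 1.69 TPM in A549-TIPARP. Its libraries overlapped at a level near the lower limit, with a difference of -0.19 (SE 0.22, limma adjusted p = 0.994).

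The makeup of the VEGF family within each library does not depend on how libraries were scaled. It was computed after the levels had been seen and is given without a test. VEGFC made up 20.4%, 13.7% and 22.5% of the summed TPM of the 4 ligands in replicates 1 to 3 of A549-GFP and 9.35%, 13.8% and 12.8% in A549-TIPARP. The share in A549-GFP replicate 2 lay within the A549-TIPARP range, and VEGFA took 54.3% of the sum in that library. VEGFA took 30.1% and 21.6% in A549-GFP replicates 1 and 3 and between 29.4% and 30.8% in A549-TIPARP. The ratio of VEGFB to VEGFC, which leaves VEGFA out, was 2.33, 2.21 and 2.39 in A549-GFP and 6.24, 3.89 and 4.38 in A549-TIPARP, with no overlap between the lines.

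**Figure D3:**
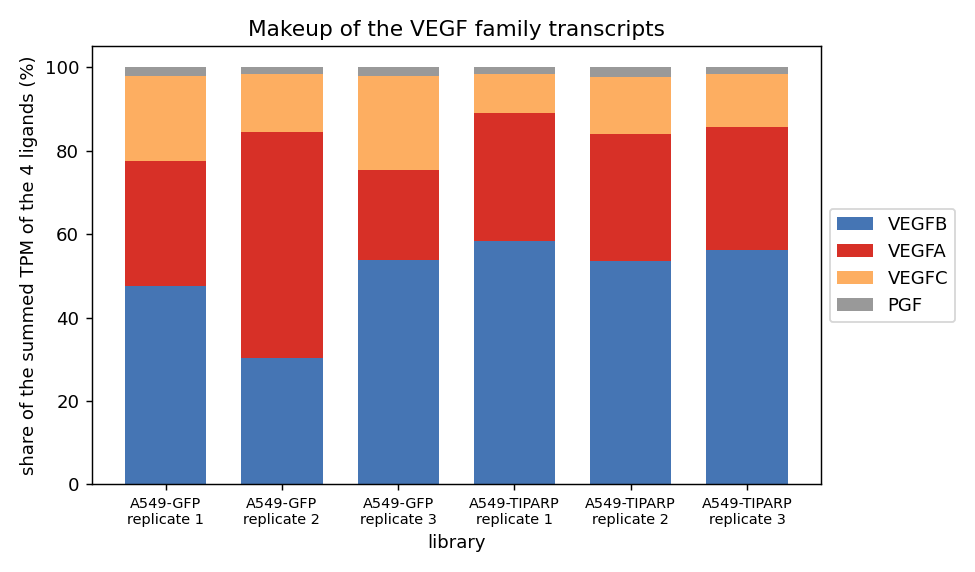
Share (%) of VEGFB, VEGFA, VEGFC and PGF in the summed TPM of these 4 ligands, with 1 bar per library. The VEGFA share is 54.3% in A549-GFP replicate 2 and at most 30.8% in the other libraries, and the VEGFC share is 20.4% and 22.5% in the other A549-GFP libraries and at most 13.8% in A549-TIPARP.

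PDGFB was the only factor listed at the lowest value throughout 1 line. It lies on chromosome 22 (39223359 to 39244982, minus strand). All 3 A549-GFP libraries were at the lowest value, below or at 1 TPM, and A549-TIPARP replicates 1, 2 and 3 were at 2.78, 1.64 and 2.06 TPM. The lines did not overlap, but the values lay at the floor and just above it, and the size of the fold is not given, since it depends on the floor. With floor values taken as 1 TPM, the difference on log2(TPM + 1) was 0.64 (SE 0.22, limma adjusted p = 0.983). Without A549-TIPARP replicate 1 the unadjusted p was no longer under 0.05 and the 2-fold rule, with the floor taken as 1 TPM, was no longer passed. A filter of 2 TPM in at least 3 libraries removed the gene. PDGFA, the other chain, was at 9.30, 16.4 and 7.43 TPM in A549-GFP and at 11.5, 9.55 and 11.1 TPM in A549-TIPARP. Its lines overlapped, with a difference of 0.02 (SE 0.29, 95% confidence interval -0.64 to 0.68, limma adjusted p = 0.998), and 0.32 without A549-GFP replicate 2.

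EDN1, the most abundant of the 10, lies on chromosome 6 (12290361 to 12297194, plus strand) with 5 exons. It ranked 1226 of 13181 genes by mean TPM. It was at 75.3, 164 and 72.8 TPM in replicates 1 to 3 of A549-GFP and at 106, 113 and 126 TPM in replicates 1 to 3 of A549-TIPARP. All A549-TIPARP libraries lay above A549-GFP replicates 1 and 3 and below A549-GFP replicate 2. With all libraries the difference was 0.24 (SE 0.30, limma adjusted p = 0.994). Without A549-GFP replicate 2 it was 0.62 (limma adjusted p = 0.225), and without A549-GFP replicate 3 it was 0.04. FGF2, a growth factor that leaves cells without a signal peptide, showed the same order of libraries at a lower level. It was at 9.24, 15.9 and 5.47 TPM in A549-GFP and at 9.72, 10.4 and 10.5 TPM in A549-TIPARP, with a difference of 0.11 (SE 0.33, limma adjusted p = 0.995), and 0.46 without A549-GFP replicate 2.

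A549-GFP replicate 2 was the top library for 6 of the 10 factors, VEGFA, VEGFC, PGF, PDGFA, FGF2 and EDN1, against 52% of all genes. The SD of log2 TPM was larger in A549-GFP than in A549-TIPARP for 7 of the 10 factors, against 79.6% of all genes, so in neither count did the factors stand out from the analysed genes. Without that library, 6 factors (VEGFA, PDGFA, PDGFB, FGF2, EDN1 and THBS1) were higher in all 3 A549-TIPARP libraries than in both remaining A549-GFP libraries, against 21.2% of all genes. VEGFC was still lower in all of them, against 6.42%. At an unadjusted p under 0.05 there were then 3 factors, EDN1, PDGFB and VEGFC, against 10.5% of all genes, and none had an adjusted p under 0.05. PDGFB is in both counts as a description, since it passed the filter through its A549-TIPARP values alone. For the factors whose value without that library is not given beside their own, the difference was then 0.28 for VEGFB, -0.67 for VEGFC, -0.065 for PGF, 0.64 for PDGFB, 0.065 for ANGPTL4 and 0.31 for THBS1. What set A549-GFP replicate 2 apart was not tested.

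THBS1, the antiangiogenic member, lies on chromosome 15 (39581079 to 39599466, plus strand) with 22 exons. It was at 3.51, 3.46 and 2.16 TPM in replicates 1 to 3 of A549-GFP and at 3.69, 3.78 and 3.53 TPM in replicates 1 to 3 of A549-TIPARP. The lines did not overlap, but the lowest A549-TIPARP and the highest A549-GFP library were almost level, and A549-GFP replicate 3 lay below all others. The difference was 0.23 (SE 0.23, 95% confidence interval -0.29 to 0.74, limma adjusted p = 0.994), and it was 0.06 without A549-GFP replicate 3. ANGPTL4 was at 13.1, 18.4 and 32.2 TPM in A549-GFP and at 16.9, 33.5 and 17.8 TPM in A549-TIPARP. A single library was high in each line, A549-GFP replicate 3 and A549-TIPARP replicate 2, and the lines overlapped, with a difference of 0.12 (SE 0.37, 95% confidence interval -0.72 to 0.95, limma adjusted p = 0.995).

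The ratio of VEGFA to THBS1 sets the main stimulator against the inhibitor within a library. It was 7.53, 25.1 and 8.88 in replicates 1 to 3 of A549-GFP and 8.34, 7.14 and 8.69 in replicates 1 to 3 of A549-TIPARP. Outside A549-GFP replicate 2 all libraries lay between 7.14 and 8.88. The log2 ratio was 3.57 ± 0.94 (SD, n = 3) in A549-GFP and 3.01 ± 0.15 (SD, n = 3) in A549-TIPARP, a difference of -0.57 (two-sided exact permutation p = 0.40, where 0.10 is the smallest p the design allows). Without A549-GFP replicate 2 the difference was -0.03.

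The genes whose log2 TPM ran most like that of VEGFA over the 6 libraries, of 10968 genes above 2 TPM in all libraries, were AKAP17A (Pearson r = 0.997, Spearman rho = 1), STBD1 (r = 0.997, rho = 0.943) and ABHD11 (r = 0.997, rho = 1). Without the 2 libraries farthest from the VEGFA median, A549-GFP replicates 2 and 3, r was 0.933, 0.890 and 0.780. For THBS1 they were CAV2 (r = 0.991, rho = 0.943), PPM1B (r = 0.985, rho = 0.486) and HECTD3 (r = 0.981, rho = 0.543). Without A549-GFP replicate 3 and A549-TIPARP replicate 2, r was 0.652, -0.717 and 0.416, so the likeness of PPM1B and HECTD3 to THBS1 rested on those libraries and that of CAV2 was lower without them. These genes were picked for r, the libraries share 1 cell line, and no p is given.

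Receptors of the factors were also looked at in the cells themselves. Of 15 listed receptors, 7 were at the lowest value in all 6 libraries, namely FLT1, KDR, PDGFRA, PDGFRB, EDNRA, EDNRB and CD36, and FLT4 and FGFR2 reached at most 1.35 and 1.75 TPM. The other 6 were analysed. FGFR4 was the most abundant, at 129, 53.1 and 133 TPM in replicates 1 to 3 of A549-GFP and at 137, 138 and 144 TPM in A549-TIPARP. The lines did not overlap, and its log2 difference of 0.52 (SE 0.33, limma adjusted p = 0.994) was 0.09 without A549-GFP replicate 2. NRP1, a co-receptor of VEGFA, was at 33.4, 60.6 and 25.6 TPM in A549-GFP and at 36.3, 42.8 and 47.8 TPM in A549-TIPARP, with overlap between the lines and a log2 difference of 0.17 (0.51 without A549-GFP replicate 2, where its unadjusted p was under 0.05). No receptor had an adjusted p under 0.05, and 1 of the 6, FGFR1, had an unadjusted one, against 3.85% of all genes. It was above 0.05 with the replicate block and without A549-TIPARP replicate 1 or 2. FGFR1, a receptor of FGF2 that was singled out after its values were seen, was at 30.3, 21.8 and 29.4 TPM in A549-GFP and at 39.1, 47.4 and 35.9 TPM in A549-TIPARP, without overlap. Its log2 difference was 0.57 (SE 0.21, limma adjusted p = 0.994), and 0.43 without A549-GFP replicate 2. The median difference in deposited log2 TPM of the 6 receptors was 0.10.

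**Figure D4:**
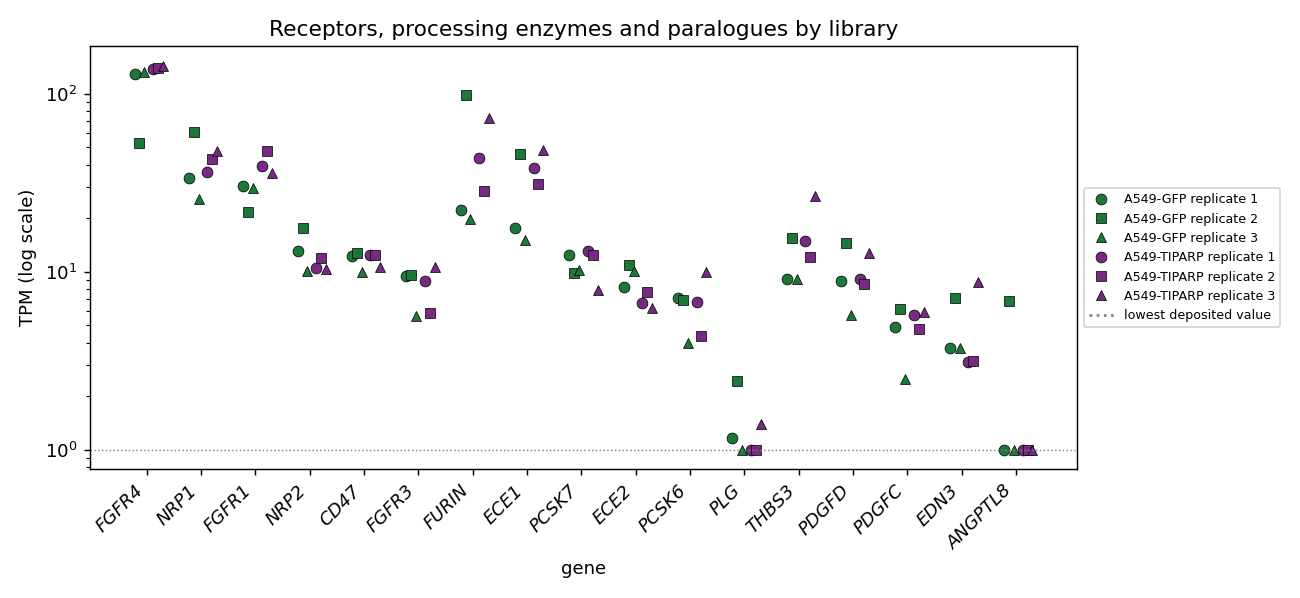
TPM by library (log axis) of the analysed receptors (FGFR4 to FGFR3), processing enzymes (FURIN to PLG) and paralogues (THBS3 to ANGPTL8) of the 10 factors, with the colors and marks of the plot of the factors. FGFR1 is higher in all A549-TIPARP libraries, from 35.9 to 47.4 TPM, and ANGPTL8 is above the dotted lowest value in A549-GFP replicate 2 alone.

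Enzymes that cut the factors into their active forms were also compared. FURIN, a convertase of the PDGF and VEGFC precursors, was at 22.2, 98.6 and 19.7 TPM in replicates 1 to 3 of A549-GFP and at 43.7, 28.3 and 73.4 TPM in A549-TIPARP. ECE1, which releases the EDN1 peptide, was at 17.6, 46.1 and 15.1 TPM in A549-GFP and at 38.5, 31.1 and 48.4 TPM in A549-TIPARP. FURIN was highest and ECE1 next to highest in A549-GFP replicate 2, which held the highest value for 52% of the analysed genes, EDN1 among them. Both enzymes overlapped between the lines. The log2 difference of FURIN was 0.34 (SE 0.59, limma adjusted p = 0.994) and 1.07 without A549-GFP replicate 2. That of ECE1 was 0.72 (SE 0.39, limma adjusted p = 0.994) and 1.20 without A549-GFP replicate 2. ECE2, singled out after its values were seen, was lower in all A549-TIPARP libraries, at 6.24 to 7.71 TPM against 8.21 to 11.0 TPM. Of the 6 analysed enzymes of 9 listed, none had a limma p under 0.05 with all libraries, adjusted or not, while FURIN and ECE1 had an unadjusted one without A549-GFP replicate 2. The median difference of the 6 in deposited log2 TPM was 0.11.

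Most paralogues of the factors were silent at this limit. Of 17, 11 were at the lowest value in all libraries, among them VEGFD, FGF1, THBS2 and ANGPTL1, and 5 were analysed. THBS3 was the most abundant, at 9.05, 15.5 and 9.14 TPM in A549-GFP and at 14.9, 12.1 and 26.6 TPM in A549-TIPARP. Its log2 difference of 0.59 (SE 0.33, limma adjusted p = 0.994) was 0.83 without A549-GFP replicate 2 and 0.28 without A549-TIPARP replicate 3. PDGFD ranged from 5.74 to 14.5 TPM in A549-GFP and from 8.53 to 12.8 TPM in A549-TIPARP. ANGPTL8, singled out after its values were seen, was at 6.81 TPM in A549-GFP replicate 2 and at the lowest value in the other 5 libraries. None of the 5 had a limma p under 0.05 with all libraries, adjusted or not, while THBS3 had an unadjusted one without A549-GFP replicate 2.

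Other secreted factors were compared as well. Of 14 further proangiogenic factors, 9 were analysed, and none had a limma adjusted p under 0.05. The most abundant were SPP1, at 375 to 660 TPM in A549-GFP and 393 to 418 TPM in A549-TIPARP, and HDGF, at 382 to 430 TPM and 308 to 413 TPM. The log2 difference of SPP1 was -0.30, and -0.11 without A549-GFP replicate 2. Without A549-GFP replicate 3 it was -0.52, with an unadjusted limma p under 0.05. CCN2, a matricellular protein listed as CTGF, was past 2-fold, at 11.3, 26.2 and 8.09 TPM in replicates 1 to 3 of A549-GFP and at 29.0, 20.7 and 43.5 TPM in A549-TIPARP. Its lines overlapped through A549-GFP replicate 2, and its log2 difference of 1.08 (SE 0.42, limma adjusted p = 0.994) was 1.54 without that library and 0.75 without A549-GFP replicate 3. Its unadjusted p, under 0.05 with all libraries, was not so with the replicate block, with no filter or without A549-GFP replicate 1 or 3 or A549-TIPARP replicate 1 or 3. The other gene of the 9 at an unadjusted p under 0.05, against 3.85% of all genes, was ADM, which encodes the vasodilator peptide adrenomedullin and was picked with its values known. It was at 49.9, 40.0 and 49.2 TPM in A549-GFP and at 67.4, 68.9 and 67.6 TPM in A549-TIPARP, without overlap and with a log2 difference of 0.55 (SE 0.17, limma adjusted p = 0.932) that was 0.45 without A549-GFP replicate 2. The median difference in deposited log2 TPM of the 9 was 0.41. Of 7 genes listed as further antiangiogenic factors, the vasohibins VASH1 and VASH2 were analysed. VASH1 is an inhibitor of vessel growth, while VASH2, although in this list, is known to promote it. VASH2 was lower in all A549-TIPARP libraries, at 3.86 to 4.63 TPM against 5.36 to 8.72 TPM, and VASH1 overlapped, at 2.82 to 4.57 TPM against 2.00 to 2.95 TPM. Neither had a limma p under 0.05 with all libraries, adjusted or not. An unadjusted one was found for both without A549-GFP replicate 2, and for VASH2 also without A549-GFP replicate 3 and with no variance trend.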

How the data were processed

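RNA of 3 A549-GFP and 3 A549-TIPARP libraries was prepared with a stranded mRNA kit per the labels. Paired-end reads were aligned in Strand NGS to the human transcriptome (hg38), and the authors deposited the log2 of the TPM of 53826 entries per library. The software version and annotation release are not given in the sources used here. The deposited log2 values have a floor of 0, to which TPM below 1 was raised. Depth is unknown, so the precision rests on the 3 libraries of a line.

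Lines and replicate numbers were taken from the sample titles. As in the study, genes with TPM above 2 in at least 1 library were kept. Folds, 2-fold calls and list medians are differences of mean deposited log2 values. limma 3.58.1 in R 4.3.3 was fitted to log2(TPM + 1) of all 13181 genes, the scale of every difference given with an SE, with a variance trend and no block, with Benjamini-Hochberg adjusted p-values. A pseudocount understates changes of low genes. The log2 ratio of VEGFA to THBS1 was tested with an exact permutation test over libraries. On simulated data the same script recovered 85.0% of 200 genes changed 4-fold among 13181. The simulation drew independent normal noise for each gene and held no outlying library. Smaller changes, such as the 1.72-fold of VEGFC, were not simulated, so this share does not give the power for the factors.

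The 10 genes and the context lists were chosen with earlier results of these data known. Named context genes are the 2 most abundant of each list and those past 2-fold, and others are said to have been singled out. Coordinates are those of GENCODE release 44 on hg38. CCN1 and CCN2 were matched by Entrez Gene ID. Alternatives were other pseudocounts, filters, scaling, thresholds and means, no variance trend, a replicate block and each library left out. Adding 1 to TPM before the fold was chosen after seeing the data.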

Additional observations from a re-analysis of the deposited data

How the results depend on the processing

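No factor had a limma adjusted p under 0.05 under any of the 13 alternative fits. Of 128 fits of single factors, 120 kept the sign of the difference, and the 8 that turned it left out a library. The cause was not tested. When single libraries were removed, the difference on log2(TPM + 1) ran from -0.69 to 0.37 for VEGFA, from -0.20 to 0.32 for PDGFA, from -0.23 to 0.46 for FGF2, from -0.19 to 0.45 for ANGPTL4, from -0.17 to 0.43 for PDGFD, from -0.10 to 0.51 for NRP1, from -0.066 to 1.07 for FURIN, from -0.13 to 0.63 for KRT18 and from -0.13 to 0.49 for KRT8. The 2 factors with an unadjusted p under 0.05 became 1 under the filter of 2 TPM in at least 3 libraries, which leaves PDGFB out. On removal of single libraries they became from 0 (without A549-TIPARP replicate 1) to 3 (without A549-GFP replicate 2, against 10.5% of all genes). The 1 factor past 2-fold, PDGFB, became 0 with a pseudocount of 1, 0 under the stricter filter, 2 with a threshold of 1.5-fold, which adds VEGFC, and from 0 to 1 on removal of single libraries. The shares of all genes under the other settings of these counts are not given, so the changes are not read as being about the factors. The 3 factors whose libraries did not overlap became 2 under the stricter filter, which leaves PDGFB out, and from 3 to 7 on removal of single libraries, with 7 without A549-GFP replicate 2 and 5 without A549-TIPARP replicate 2. The share of all analysed genes without overlap, 8.91% with all libraries, was 27.7% and 16.1% in these 2 cases and from 11.7% to 30.7% over the 6 removals. The difference of the VEGFA to THBS1 log2 ratio ran from -0.89 to -0.03. Over all genes the 2 calls became 1 with no filter, 1 with the replicate block, and from 1 to 3 on removal of single libraries.

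Both lines carry the same experiment numbers. Deviations of same-numbered libraries from their line means correlated with r = 0.415, -0.486 and -0.358, and not every library correlated best with its own number. Deviations within a line sum to 0, so these values are not independent and cannot decide whether the numbers pair the libraries. The main fit was left without a block. With the replicate block the difference of VEGFC on log2(TPM + 1) was -0.73 (limma adjusted p = 0.999), and the block changed no call of a factor. The floor at 1 TPM limits what can be said of PDGFB.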
